A study of Mus musculus with 11 samples.

Results

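Bone morphogenetic protein (BMP) signalling was followed through 10 genes, the ligands Bmp4 and Bmp7, the receptors Bmpr1a, Bmpr1b and Bmpr2, the transducer Smad1, the inhibitory Smads Smad6 and Smad7, and the antagonists Nog and Bambi. Every probe set annotated to exactly 1 of these genes was taken, which gave, for 10 of the 18193 genes named on the array, 24 of the 45101 probe sets on the Affymetrix Mouse Genome 430 2.0 array. Knockout oligodendrocytes were on 3 of the 11 arrays, control oligodendrocytes on 4 and progenitors on 4. Knockout cells carried MRF fl/fl with Olig2 wt/cre, so both copies of Myrf (called MRF in the labels), a transcription factor needed for myelination, were floxed and Cre came from the Olig2 locus. Control littermates carried MRF wt/fl with Olig2 wt/cre, and therefore shared the Cre allele and 1 floxed copy with the knockouts. The cells were purified from brains at postnatal day 7 by selection for PDGFRα after microglia had been removed, expanded in PDGF-AA, and then differentiated for 4 days without PDGF-AA and with 40 ng/ml of the thyroid hormone T3. The progenitors were instead kept for 6 days in PDGF-AA, at 10 ng/ml, and their genotype is given only as control. The labels do not say how many animals each array represents, so each p-value reflects the spread between the arrays at hand, some or all of which may be technical.

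BMPs are secreted dimers that bring a type I receptor (BMPR1A or BMPR1B) together with a type II receptor (BMPR2). The type I receptor then phosphorylates SMAD1 and its relatives, which enter the nucleus with SMAD4 and switch on targets such as the Id genes, while SMAD6 and SMAD7 block the relay inside the cell, Noggin (Nog) captures BMPs outside it and BAMBI acts as a receptor decoy. In the oligodendrocyte lineage BMPs are known to restrain differentiation and to favour astrocytes, with Id proteins acting downstream.

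Some arrays stood apart from the others of their group. Myrf itself, on its 1 probe set, had signals of 2849, 1904 and 2223 in the knockout arrays, against 7374, 6614, 7517 and 6215 in the control arrays and 752, 6848, 1135 and 970.5 in the progenitor arrays. All 3 knockout arrays were therefore below all 4 controls, while progenitor replicate 2 lay in the range of the controls. Whether that probe set lies in the deleted part of the gene is not given in the sources used here. Progenitor replicates 1 and 4 had Gapdh 5′ to 3′ signal ratios of 0.332 and 0.12, against 1.15 to 1.41 on the other 9 arrays. Of the markers fixed for other cell types, all 8 astrocyte genes were measured, and their summed signal was 83450 to 89824 in knockout arrays, 55794 to 75636 in control arrays and 5074 to 10499 in progenitor arrays. Gfap, the intermediate filament of astrocytes, lay between 14658 and 17212 on all 7 oligodendrocyte arrays and between 61.8 and 100.3 on the progenitor arrays. The 5 measured oligodendrocyte markers summed to between 34927 and 40419 in knockout arrays, 64692 and 85302 in control arrays and 12142 and 49630 in progenitor arrays, and the 5 progenitor markers to between 20348 and 24948 in knockout, 11982 and 16158 in control and 33145 and 43216 in progenitor arrays. Of the oligodendrocyte markers, 3 were called lower in knockout than in control in limma on the 11 arrays. Their mean signals in knockout and control were 442.4 and 13198 for Mag, 46.4 and 2180 for Mog and 541 and 18181 for Mobp. Mbp (17329 and 20308) and Cnp (19874 and 23131) were not called. The 5 progenitor markers did not move together between knockout and control. Mean signals there were 2805.5 and 652.5 for Vcan, 12217 and 6508 for Gpr17 and 6142 and 4349 for Ptprz1. For Cspg4 they were 143 and 119.5, for Pdgfra 1538 and 2683, and in limma on the 11 arrays Vcan alone was called. Of the 9 markers of fibroblasts, pericytes and smooth muscle, 2 were tested, of which Tagln, a smooth muscle actin-binding protein, was called higher in knockout than in control arrays, and the summed signal of all 9 was 3468 to 6383 in knockout arrays, 837 to 2042 in control arrays and 291 to 550.4 in progenitor arrays. Tagln averaged 2474 in knockout and 518.8 in control arrays, and Acta2, the other one tested, 1447.5 and 710.4. The remaining markers of this list did not pass the filter. Neither the 4 tested neuronal markers (2 with an unadjusted p under 0.05) nor the 1 tested Schwann cell marker (0 such) were called in limma between knockout and control on the 11 arrays. Another limma fit took the replicate number as a block. It used knockout and control replicates 1 to 3 only, without control replicate 4 or the progenitors. There 2 neuronal markers (Nefm, adjusted p = 0.0315, and Nefl, 0.0333) were called lower and the Schwann cell marker (Pmp22, 0.025) higher in knockout. The same limma fit called Mag, Mog and Mobp lower in knockout (adjusted p from 0.00108 to 0.00397). It called Vcan (0.00348), Gpr17 (0.00664) and Tagln (0.019) higher. No microglial marker exceeded a signal of 152 and no endothelial marker exceeded 283 on any array. In such mixed RNA, fewer cells of a type and less RNA per cell cannot be told apart, and the part of these markers in the results that follow was not tested.

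The promoters of the members whose signals are described in most depth are printed as a reference for where sequence motifs fall, from RefSeq on mouse build GRCm38.p6, as 250 bases before to 50 after the annotated start, 5′ to 3′ on the gene's own strand. Windows of 6 of the 10 genes were used. Those of Bmp4 (chr14:46390620-46390919, minus strand), the ligand with the widest range of signal, Smad1 (chr8:79399379-79399678, minus strand), the transducer with a probe set called between knockout and control, and Bmpr1a (chr14:34502497-34502796, minus strand), the receptor with 6 probe sets, are shown with motif matches in capitals.
Bmp4: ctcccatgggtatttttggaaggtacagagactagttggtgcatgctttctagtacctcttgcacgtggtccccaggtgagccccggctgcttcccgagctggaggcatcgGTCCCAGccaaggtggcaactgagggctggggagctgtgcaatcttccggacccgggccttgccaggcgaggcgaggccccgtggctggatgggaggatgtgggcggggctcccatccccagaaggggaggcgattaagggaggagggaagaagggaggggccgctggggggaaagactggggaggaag
Smad1: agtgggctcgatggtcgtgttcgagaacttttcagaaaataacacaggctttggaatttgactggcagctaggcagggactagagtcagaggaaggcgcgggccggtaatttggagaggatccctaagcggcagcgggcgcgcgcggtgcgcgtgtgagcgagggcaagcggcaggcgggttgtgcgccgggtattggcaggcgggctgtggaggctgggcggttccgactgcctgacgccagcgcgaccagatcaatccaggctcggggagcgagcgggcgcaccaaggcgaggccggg
Bmpr1a: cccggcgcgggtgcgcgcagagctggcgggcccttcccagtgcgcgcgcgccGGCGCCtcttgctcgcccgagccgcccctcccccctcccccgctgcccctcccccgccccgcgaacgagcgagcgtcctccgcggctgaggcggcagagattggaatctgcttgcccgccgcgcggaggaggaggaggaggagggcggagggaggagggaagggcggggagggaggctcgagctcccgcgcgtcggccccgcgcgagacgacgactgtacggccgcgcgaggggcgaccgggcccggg
Searched on both strands were CTGGNAC, a loose form of the motif reported for MYRF (other strand GTNCCAG), the Smad-binding GGCGCC, which reads the same on both strands, and the Smad box CAGAC (other strand GTCTG). The Bmp4 window held 1 match to the loose MYRF form, starting at base -139 from the start and lying on the other strand, and the base at its N is a purine where the reported motif takes a pyrimidine. The Bmpr1a window held GGCGCC at base -198, and the Smad1 window held none of these letters. Of 32817 windows of the same length, 19.3% held the loose MYRF form, 11.9% GGCGCC and 49.6% the Smad box, so a match is a description of the letters and not a site of binding.

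Of the 24 probe sets, 14, from 7 of the 10 genes, had a signal of 200 or more on 3 or more arrays and were tested with limma across 18568 probe sets. A probe set was called at a Benjamini-Hochberg adjusted p under 0.05. Some passed the filter through a single group: the Bmp7 probe set 1418910_at reached 200 on the 4 progenitor arrays alone, Bmpr1b on oligodendrocyte arrays alone and the dimmer Smad7 probe set on 3 control arrays alone. Between knockout and control oligodendrocytes 1 of the 14 was higher (a Smad1 probe set) and 1 lower (a Smad7 probe set), where 5.48% of all tested probe sets were called. For 7 of the 14 the knockout and control arrays did not overlap, beside 29.1% of all probe sets, and 7 had an unadjusted p under 0.05. Probe sets of the same gene, as for Smad1 and Smad7, are not independent. For unadjusted p, here or elsewhere, no share over all probe sets or genes was counted, so such counts are descriptions only. With the replicate number as a block, which the titles give, 7 were higher and 2 lower, beside 20.1% of all probe sets, and in a fit of these 2 groups alone 4 were higher and 2 lower, beside 13.7%. The called count was 0 without knockout replicate 2 or without knockout replicate 3, 1 without control replicate 3 and 4 without progenitor replicate 2. The share of all probe sets called is not given for these fits, so these counts are not read as a result about the members. The median log2 difference of knockout minus control was 0.41 over the 14 and 0.03 over all probe sets.

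Against progenitors the members separated further. In control oligodendrocytes 6 probe sets were higher and 3 lower, where 53.3% of all probe sets were called, and 8 did not overlap, beside 43.7%. In knockout oligodendrocytes 7 were higher and 2 lower than in progenitors, where 50.6% of all were called, and 9 did not overlap, beside 49.6%. Both comparisons share the 4 progenitor arrays, and 9 of the 14 member probe sets were called in each, a share not far above that of all probe sets.

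**Figure D1:**
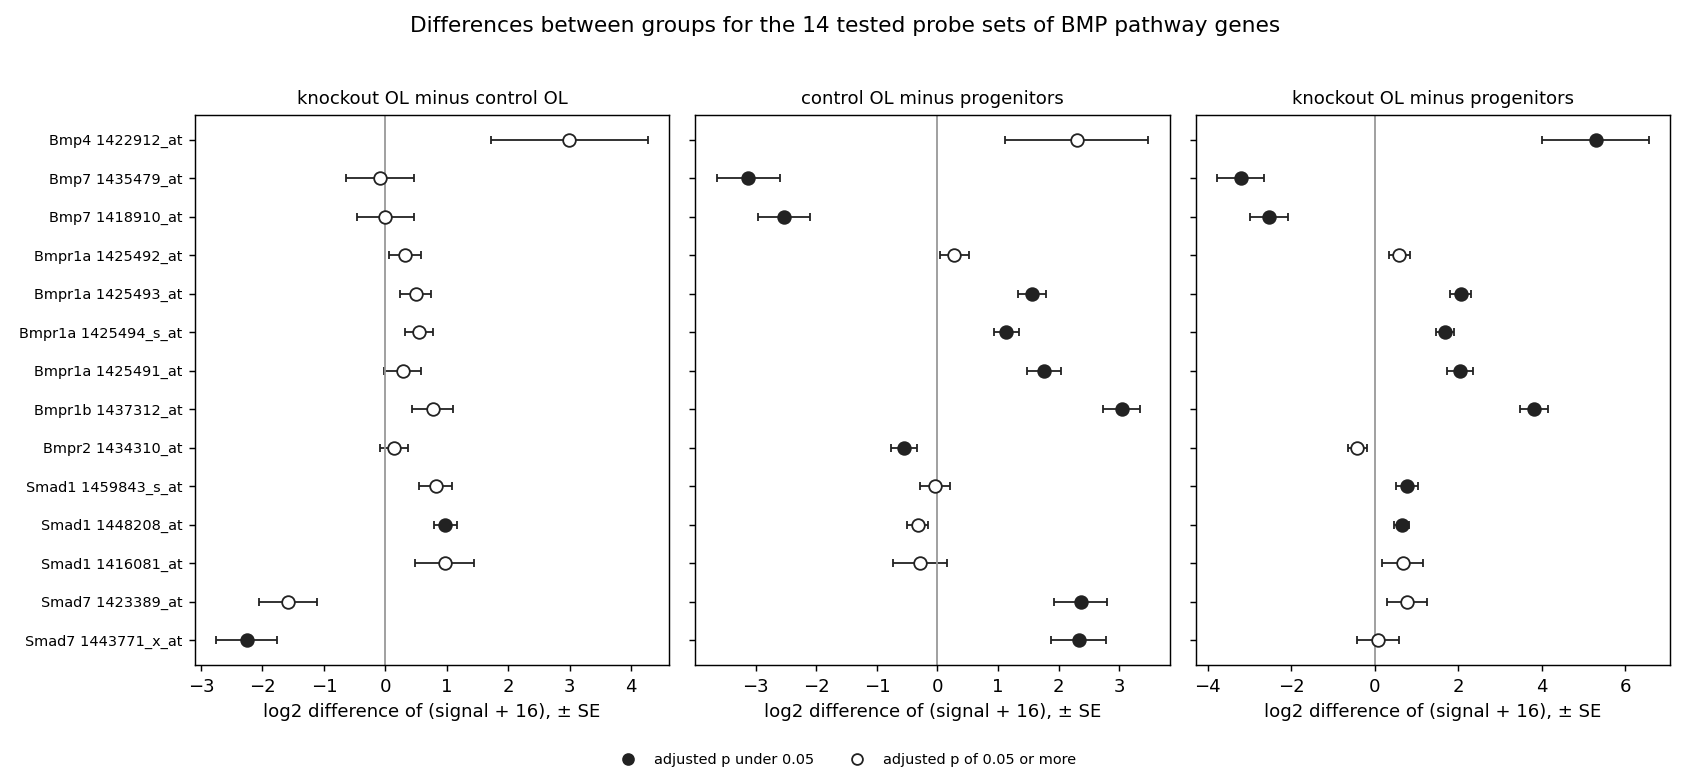
Log2 differences of signal + 16 with standard errors for the 14 tested probe sets of BMP pathway genes, in panels of knockout minus control, control minus progenitors and knockout oligodendrocytes minus progenitors. Filled circles had an adjusted p under 0.05 in limma; between knockout and control these were 1 Smad1 and 1 Smad7 probe set, and the Bmp4 point lay farthest from 0 with the widest error.

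Bmp4, a ligand that drives progenitors away from the oligodendrocyte fate in culture, had the widest range among the members. Its 1 probe set had signals of 4679, 6438 and 6835 in the knockout arrays, against 614, 821, 433 and 1268 in the control arrays and 10.5, 3614, 120.5 and 23.5 in the progenitor arrays. The lowest knockout array was above the highest control array and above every progenitor array, and progenitor replicate 2 was far above the other 3. Means were 5984 ± 1148 (SD, n = 3) in knockout, 784 ± 359 (SD, n = 4) in control and 942 ± 1782 (SD, n = 4) in progenitor arrays. The log2 difference of knockout minus control was 3.00 (SE 1.28, 7.97-fold), and it was not called in limma on 11 arrays (adjusted p = 0.233). The 11 arrays share 1 estimate of the spread, which here includes the progenitor arrays. In limma the adjusted p was 0.000573 with the replicate number as a block (log2 difference 3.26), 0.000463 in the fit of the 2 groups alone and 0.00269 without progenitor replicate 2, and it was 0.0601 without progenitor replicates 1 and 4. The block fit, like that of the 2 groups alone, had no progenitor arrays, and it also left out control replicate 4. Over 22 alternatives the log2 difference stayed between 2.75 and 3.26, the adjusted p ranged from 0.000463 to 0.496, and 3 of them called the difference.

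Against progenitors, Bmp4 was called in knockout oligodendrocytes, with a log2 difference of 5.29 (SE 1.28, 39.2-fold, limma adjusted p = 0.00537), 4.46 without progenitor replicate 1, 6.82 without replicate 2, 4.65 without replicate 4 and 3.07 without progenitor replicates 1 and 4. For control oligodendrocytes minus progenitors the log2 difference was 2.30 (SE 1.18) with overlapping arrays, and it was not called (limma adjusted p = 0.12). The sign depended on the scale there, since the linear mean of the controls was 0.832 times that of the progenitors. Without progenitor replicate 2 the difference was 3.83 and called (limma adjusted p = 5.85e-05). It was 1.46 without replicate 1 and 1.65 without replicate 4, and without progenitor replicates 1 and 4 it was 0.08 (adjusted p = 0.956). The order of Bmp4 levels, knockout above control, held on every array, while the place of the progenitors among them rested on which of those arrays were used.

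Bmp7, the other ligand, was high in progenitors and low in both oligodendrocyte groups. The brightest of its 3 probe sets, 1435479_at, had signals of 229.8, 267 and 214 in knockout arrays, against 209, 310.4, 157 and 386 in control arrays and 4445, 620.2, 2590 and 3960.1 in progenitor arrays. Every progenitor array was above every oligodendrocyte array, with replicate 2 the lowest of the progenitors, while the knockout values lay inside the control range. Control oligodendrocytes were lower than progenitors by a log2 difference of -3.12 (SE 0.52, 8.71-fold, limma adjusted p = 0.000578) and knockout oligodendrocytes by -3.21 (SE 0.56, 9.25-fold, adjusted p = 0.000834). Leaving out progenitor replicate 2 moved these to -3.75 and -3.83, and leaving out progenitor replicates 1 and 4 moved them to -2.27 and -2.35, all called. The knockout minus control difference was -0.09 (SE 0.56, limma adjusted p = 0.964). The probe set 1418910_at, which passed the filter on progenitor arrays alone, gave the same order. Its control minus progenitor difference was -2.53 (5.79-fold, limma adjusted p = 0.000644). The third, 1432410_a_at, stayed under the filter, with 54.8 to 492 in progenitors and at most 98.6 in oligodendrocytes.

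**Figure D2:**
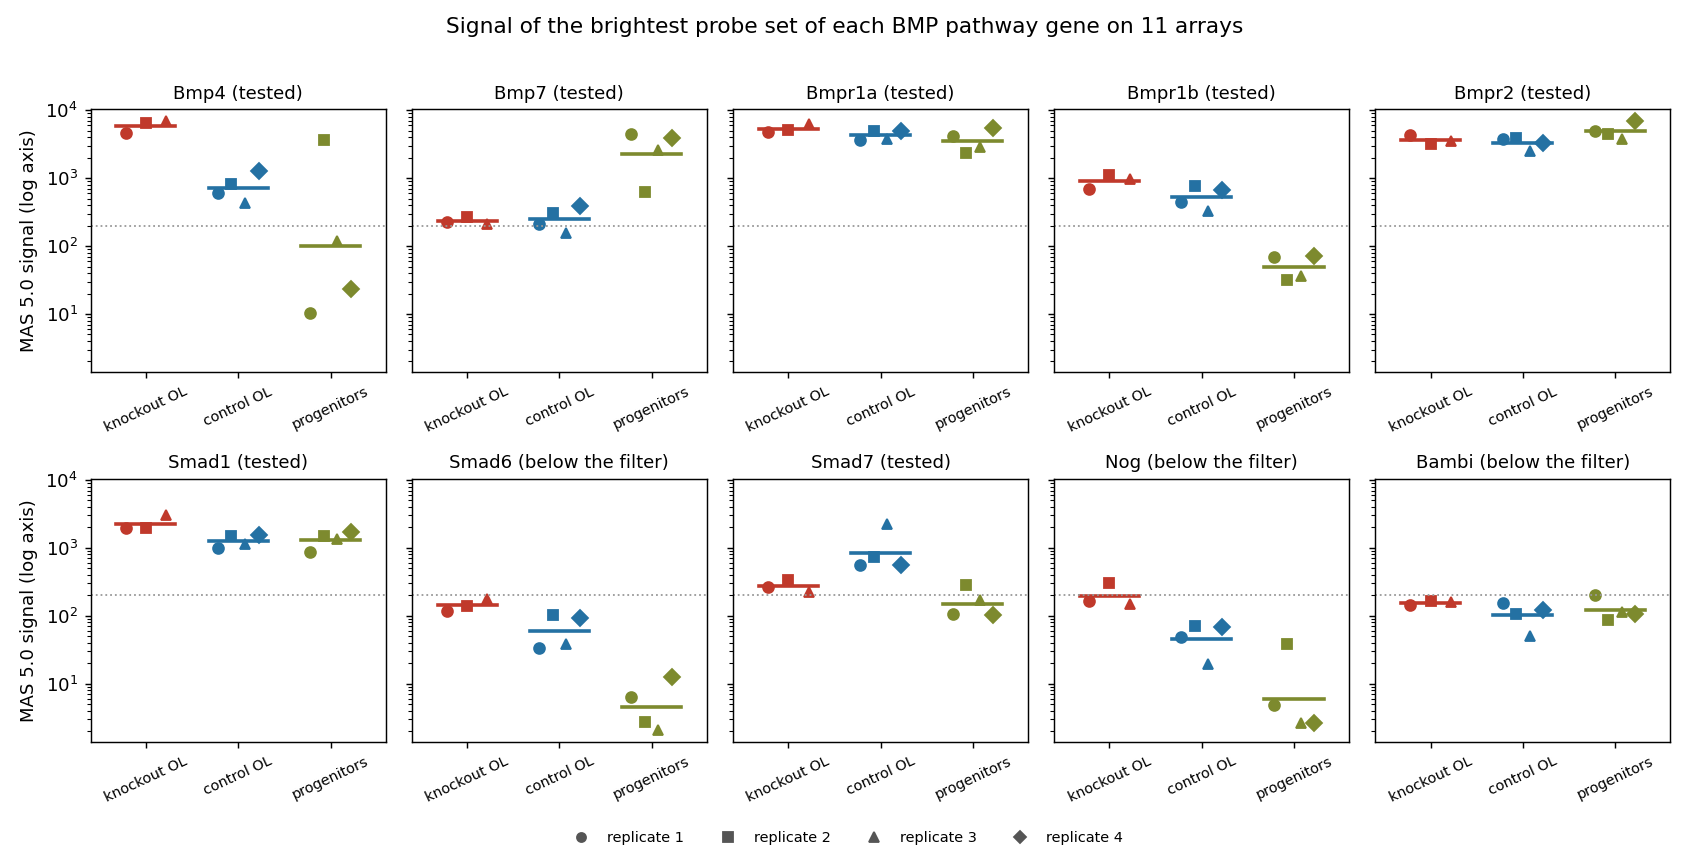
MAS 5.0 signal (log axis) of the brightest probe set of each of the 10 genes on the 11 arrays, by group (knockout OL, control OL, progenitors), with a marker per replicate, a bar at the mean of the log2 signals and a dotted line at the filter of 200. Bmp4 runs from 10.5 to 6835, and progenitor replicate 2 lies between the knockout and control arrays for Bmp4 and below the other progenitors for Bmp7.

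Of the type I receptors, Bmpr1b differed most between the stages. Its brightest probe set, 1437312_at, had signals of 686, 1099 and 982 in knockout arrays, against 449.9, 761, 328 and 663 in control arrays and 69.5, 31.5, 36.2 and 71 in progenitor arrays. No progenitor array reached 100, and the lowest oligodendrocyte array was well above all of them, while knockout and control arrays overlapped. Signals in knockout oligodendrocytes averaged 922.5 ± 213 (SD, n = 3), in controls 550.5 ± 197 and in progenitors 52 ± 21.1 (SD, n = 4 each). Against a signal of 100, which stands in for the progenitors here and wherever a group lay wholly below it, control oligodendrocytes were at least 4.65-fold higher (limma adjusted p = 2.41e-05) and knockout oligodendrocytes at least 7.94-fold higher (adjusted p = 9.37e-06). The probe set passed the filter on oligodendrocyte arrays alone. Knockout minus control was 0.77 on the log2 scale (SE 0.33) and was not called on the 11 arrays (limma adjusted p = 0.242), but was with the replicate number as a block (adjusted p = 0.0392). The 2 dimmer probe sets of Bmpr1b did not pass the filter: 1422872_at read 103 to 165 in knockout, 42.3 to 139 in control and 17.7 to 38.1 in progenitor arrays, so the order of the groups was the same. The astrocyte markers moved along with Bmpr1b across the stages (8 of 8 called, all higher in control cells), and their part in its level was not tested.

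Bmpr1a, the other type I receptor, gave different answers from different probe sets. Its brightest, 1425492_at, had signals of 4858, 5136 and 6184 in knockout arrays, against 3688, 4901, 3796 and 4970.3 in control arrays and 4139.8, 2375, 2923 and 5509 in progenitor arrays. The progenitor arrays overlapped both oligodendrocyte groups, and the control minus progenitor difference was 0.28 (SE 0.24, limma adjusted p = 0.35). The other tested probe sets did separate the stages: 1425493_at had 1549, 2197 and 2222 in knockout arrays, against 900.7, 1564, 1402 and 1866 in control arrays and 554.5, 401, 499 and 399 in progenitor arrays. For this probe set control minus progenitor was 1.56 (2.95-fold, limma adjusted p = 0.000309) and knockout minus progenitor 2.06 (adjusted p = 9.26e-05). The other tested sets had the same order, with control minus progenitor at 1.14 (2.2-fold) for 1425494_s_at and 1.76 (3.39-fold) for 1425491_at. Leaving out progenitor replicates 1 and 4, those with low Gapdh 5′ to 3′ ratios, moved control minus progenitor of the brightest probe set to 0.70 (limma adjusted p = 0.0124). Its knockout minus progenitor difference was 0.59 (adjusted p = 0.075), and it was called without progenitor replicate 4 (0.80, adjusted p = 0.013). Knockout minus control differences of the 4 tested probe sets ran from 0.28 to 0.55 and none was called, although with the replicate number as a block 1425493_at (limma adjusted p = 0.0238) and 1425494_s_at (adjusted p = 0.0268) were. The remaining 2 probe sets, 1451729_at and 1445413_at, never reached 200.

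Bmpr2, the type II receptor, had overlapping arrays in all 3 groups. Its one tested probe set had signals of 4375, 3185 and 3495 in knockout arrays, against 3761, 3875, 2500.4 and 3285 in control arrays and 4885.5, 4426, 3778 and 6875 in progenitor arrays. The highest array was a progenitor one and the lowest a control one. Knockout minus control was 0.14 (SE 0.23, limma adjusted p = 0.812). Control minus progenitor was -0.56 (SE 0.21, 1.47-fold, limma adjusted p = 0.0423), with overlapping arrays, and 12 of the alternatives did not call it, including those that left out control replicate 1, 3 or 4, progenitor replicate 1 or 4 or knockout replicate 2 or 3. Knockout minus progenitor was not called (-0.41, adjusted p = 0.146). The dim probe sets 1419616_at and 1441652_at did not exceed 222 on any array.

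**Figure D3:**
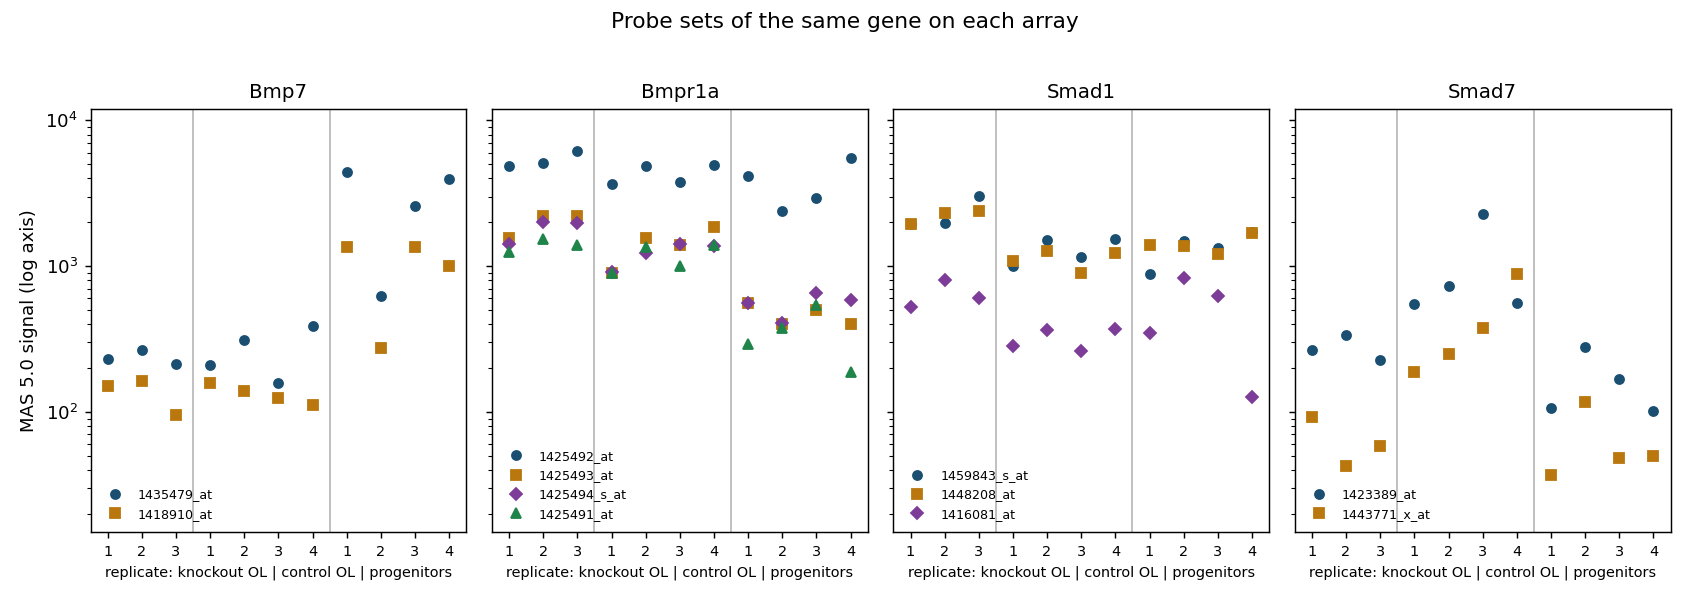
MAS 5.0 signal (log axis) on each array for all tested probe sets of the 4 genes with more than 1, with knockout, control and progenitor arrays from left to right and a colour and marker per probe set. The brightest Bmpr1a probe set overlaps across the 3 groups while the other 3 are lower in progenitors.

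Smad1, the transcription factor that BMP receptors phosphorylate, was higher in knockout than in control oligodendrocytes on each of its 3 probe sets, with no overlap between the arrays. The probe set 1448208_at had signals of 1938, 2305 and 2391 in knockout arrays, against 1092, 1272, 893 and 1240.0 in control arrays and 1386, 1364, 1204 and 1681.5 in progenitor arrays. It averaged 2212 ± 241 (SD, n = 3) in knockout, 1124 ± 173 in control and 1409 ± 199 in progenitor arrays (SD, n = 4 each). The difference of knockout minus control was 0.97 (SE 0.18, 1.96-fold, limma adjusted p = 0.00912), and this was the one member probe set called higher. Its adjusted p was 0.0511 without knockout replicate 2 and 0.0553 without knockout replicate 3. The brightest probe set, 1459843_s_at, had 1932, 1982 and 3042 in knockout arrays, against 1006, 1515, 1153 and 1526 in control arrays and 881, 1489.8, 1329.7 and 1712 in progenitor arrays. Its difference of 0.82 (SE 0.26) was not called on the 11 arrays (limma adjusted p = 0.104), but was in 4 of 22 alternatives. These were the replicate block (adjusted p = 0.0261), the 2 groups alone (0.0355), the fit without progenitor replicates 1 and 4 (0.0398) and the mean over the gene's probe sets (0.0188). By the brightest probe set of each gene, 0 of the 7 tested member genes were called between knockout and control on the 11 arrays. The third, 1416081_at, had 522, 799.5 and 605 in knockout arrays, against 285, 363, 261 and 371 in control arrays and 345, 826, 625 and 126.5 in progenitor arrays, a difference of knockout minus control of 0.96 that was called only with the block (adjusted p = 0.00768), in the 2 groups alone (0.0146) and without progenitor replicates 1 and 4 (0.0183). Control minus progenitor was not called for any of the 3, though for 1416081_at it was without progenitor replicate 4 (-0.80, limma adjusted p = 0.0386) or without replicates 1 and 4 (-1.14, 0.00404), and the knockout minus progenitor difference of 1448208_at, 0.65 (limma adjusted p = 0.0126), lay at the threshold without knockout replicate 3 (0.05) and was not called with the replicate block (0.062). For 1459843_s_at that difference was 0.78 (limma adjusted p = 0.0276), and it was not called without knockout replicate 3 (0.126), without progenitor replicate 1 (0.0713), without progenitor replicates 1 and 4 (0.0535) or in the 2 groups alone (0.0553).

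Smad7, an inhibitory Smad that BMP and TGF-beta signals induce and that damps both, had the opposite order. The probe set 1423389_at had signals of 264, 337 and 226 in knockout arrays, against 553, 727, 2284 and 561.5 in control arrays and 106.5, 280.3, 169 and 102 in progenitor arrays. All control arrays were above all knockout and all progenitor arrays, and control replicate 3 stood well above the other controls. Knockout minus control was -1.59 (SE 0.47, 3-fold, limma adjusted p = 0.0811), and control minus progenitor was 2.37 (5.16-fold, limma adjusted p = 0.00113). Of 22 alternatives, 4 called the knockout minus control difference. These were the replicate block (-1.78, adjusted p = 0.0304), the 2 groups alone (0.0464), the fit without progenitor replicate 2 (0.0386) and the mean over the gene's probe sets (0.00919). The second probe set, 1443771_x_at, had 92.9, 42.6 and 58.1 in knockout arrays, against 188, 248.5, 378 and 885 in control arrays and 37, 117, 48 and 50.1 in progenitor arrays. It was at least 3.21-fold lower in knockout than in control oligodendrocytes (limma adjusted p = 0.0209), the one member probe set called lower. It passed the filter on 3 control arrays alone, so the filter chose it through the group where it was high. With the filter at 200 on 6 arrays it was not tested, and no member probe set was called lower. The adjusted p of 1443771_x_at was 0.107 without knockout replicate 2, 0.0796 without knockout replicate 3 and 0.0597 without control replicate 3. Knockout and progenitor arrays did not differ past the threshold on either probe set (adjusted p = 0.186 and 0.908).

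Smad6, the other inhibitory Smad, stayed below the filter, with signals of 120, 137 and 174.5 in knockout arrays, against 33.9, 104, 38.8 and 94.3 in control arrays and 6.3, 2.7, 2.1 and 12.6 in progenitor arrays. No array of any group overlapped another group, in the order knockout, control, progenitors. In limma without the filter, knockout minus control was 1.03 (adjusted p = 0.209), and knockout was at least 1.36-fold higher than progenitors, against a signal of 100 (adjusted p = 9.56e-05). Control and progenitor arrays were nearly all under 100, so no fold is given between them.

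Noggin (Nog), the secreted antagonist that binds BMP4 and BMP7, also lay below the filter, since only 1 array reached 200. Its signals were 163, 308.5 and 149 in knockout arrays, against 48.1, 70.5, 19.7 and 69 in control arrays and 4.9, 38, 2.6 and 2.6 in progenitor arrays. Every knockout array was above every control array, and every control array fell under 100, so that knockout was at least 1.83-fold higher, against a signal of 100. In limma without the filter that difference was not called (adjusted p = 0.0675). Against progenitors the same bound of at least 1.83-fold held for knockout (limma adjusted p = 0.000291), and control and progenitor arrays, all under 100, overlapped. Bambi, the pseudoreceptor, had 145, 164 and 159.5 in knockout arrays, against 156, 108, 50.8 and 122 in control arrays and 203, 87.3, 112 and 108 in progenitor arrays, with all groups overlapping and knockout minus control at 0.54 without the filter (limma adjusted p = 0.612).

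The wider pathway was taken as 70 other genes in 6 roles, of which 38 had a tested probe set. Between knockout and control oligodendrocytes 1 gene was higher and 1 lower, where 6.26% of all 10069 genes, taken by their brightest probe set, were called. The median log2 difference was 0.33 over the 38 and 0.03 over all genes. Ski, a corepressor that binds Smads, had signals of 1462, 1752 and 1281 in knockout arrays, against 983.5, 928, 707 and 910 in control arrays, a difference of 0.75 (SE 0.19, 1.68-fold, limma adjusted p = 0.0412). Nedd4l, a ubiquitin ligase that acts on Smads, had 429, 348 and 423 in knockout arrays, against 1247, 616, 1119 and 939 in control arrays, a difference of -1.22 (SE 0.31, 2.33-fold lower, limma adjusted p = 0.0431). Outside the regulators no role had a call in limma. The medians were 0.32 for the 3 ligands, 0.90 for the 7 antagonists and ligand-binding proteins (3 with an unadjusted p under 0.05), 0.39 for the 5 receptors (1 such) and 0.14 for the 4 Smads (0 such). Among the 38 genes, 0 were called without any of the knockout replicates, without control replicate 1, 3 or 4 or without progenitor replicate 3, 1 without control replicate 2 and 6 without progenitor replicate 2. The share of all genes called is not given for these fits, so these counts are not read as a result about the pathway.

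The genes known to be induced by BMP, chiefly the Id family of helix-loop-helix inhibitors, had higher averages in knockout than in control oligodendrocytes without being called. In limma 0 of the 7 tested were called, 3 had an unadjusted p under 0.05, and their median difference was 0.88. Id1, Id3 and Id4, named for their differences from progenitors, are given in full. Id1 had signals of 3928, 5628 and 4056 in knockout arrays, against 2712, 2579.6, 1078 and 1962 in control arrays and 61.6, 429, 77.4 and 75.5 in progenitor arrays. Id3 had 8544, 9349.7 and 10562 in knockout arrays, against 5197, 6039, 3442.5 and 6229 in control arrays and 724, 2568, 464 and 352 in progenitor arrays. For Id1 and Id3 the 3 groups did not overlap, with knockout minus control at 1.18 (SE 0.54, limma adjusted p = 0.27) for Id1 and 0.89 (SE 0.52, adjusted p = 0.41) for Id3. Id4 had 7605, 9227 and 5308 in knockout arrays. Its control arrays had 4424, 5577, 1321 and 3833, and its progenitor arrays 158, 128, 93.5 and 94.6. Knockout and control arrays of Id4 overlapped, with a difference of 1.10 (SE 0.42, limma adjusted p = 0.178). With the replicate number as a block, 14 of the 38 genes were called, 12 of them higher and 2 lower, where the same block called 21.3% of all genes, and the fit of the 2 groups alone called 8 of the 38, where it called 14.6% of all genes. The blocked calls included 6 of the 7 BMP-induced genes, named here after their values were seen: Id1 (limma adjusted p = 0.0197), Id2 (0.00968), Id3 (0.0174), Id4 (0.0216), Hey1 (0.0206) and Sox9 (0.0175). Of these, the knockout and control arrays of Id4 and Sox9 overlapped. The astrocyte markers, which share this order of groups, had a median knockout minus control difference of 0.48, with 0 of 8 called in limma and 0 with an unadjusted p under 0.05 on the 11 arrays. With the replicate number as a block 5 of the 8 were called higher in knockout (Aqp4, Aldh1l1, Slc1a2, Slc1a3 and S100b, limma adjusted p from 0.0135 to 0.035). Their part in the levels of the Id genes was not tested.

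Between control oligodendrocytes and progenitors 18 of the 38 genes were higher and 6 lower, where 52.9% of all genes were called, with a median of 0.51 over the list and -0.09 over all genes. All 3 tested ligands were higher, among them Tgfb2 (log2 difference 2.66, 6.34-fold, limma adjusted p = 0.000137) and Bmp6 (at least 1.21-fold). Of 11 listed ligands on the array only these 3 passed the filter, and each reached 200 on oligodendrocyte arrays alone. The filter thus chose them through the groups where they were high. Of the 7 antagonists and ligand-binding proteins 5 were higher and 1 lower, led by Bmper (3.04, 8.22-fold), Nbl1 (2.56, 5.88-fold) and Fstl1 (2.37, 5.17-fold). Bmper and Nbl1 likewise reached 200 on oligodendrocyte arrays alone, and the lower gene, Chrdl1, on progenitor arrays alone. The receptors went the other way, with 2 of 5 lower and none higher: Acvr2a, a type II receptor for activins and BMPs (-1.42, 2.67-fold), and Tgfbr1, the type I receptor for TGF-beta (-1.14, 2.2-fold). Of the 4 tested Smads 2 were lower, Smad4, the partner shared by all receptor-activated Smads (-0.90, 1.86-fold), and Smad5, a relative of Smad1 (-0.76, 1.7-fold), and 1 was higher. Of 12 regulators 5 were higher and 1 lower, led by Nedd4l (1.27, 2.41-fold), Smurf1 (1.09, 2.13-fold) and Pmepa1 (1.02, 2.02-fold). Among the BMP-induced genes 4 of 7 were higher, led by Id4 (4.67, 25.5-fold, limma adjusted p = 5.33e-06), Id1 (3.92, 15.1-fold, adjusted p = 0.000104) and Id3 (2.74, 6.7-fold, adjusted p = 0.000809). Id4 also reached 200 on oligodendrocyte arrays alone. Knockout oligodendrocytes differed from progenitors in 17 higher and 3 lower genes, where 49.7% of all genes were called, and the median was 0.59.

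**Figure D4:**
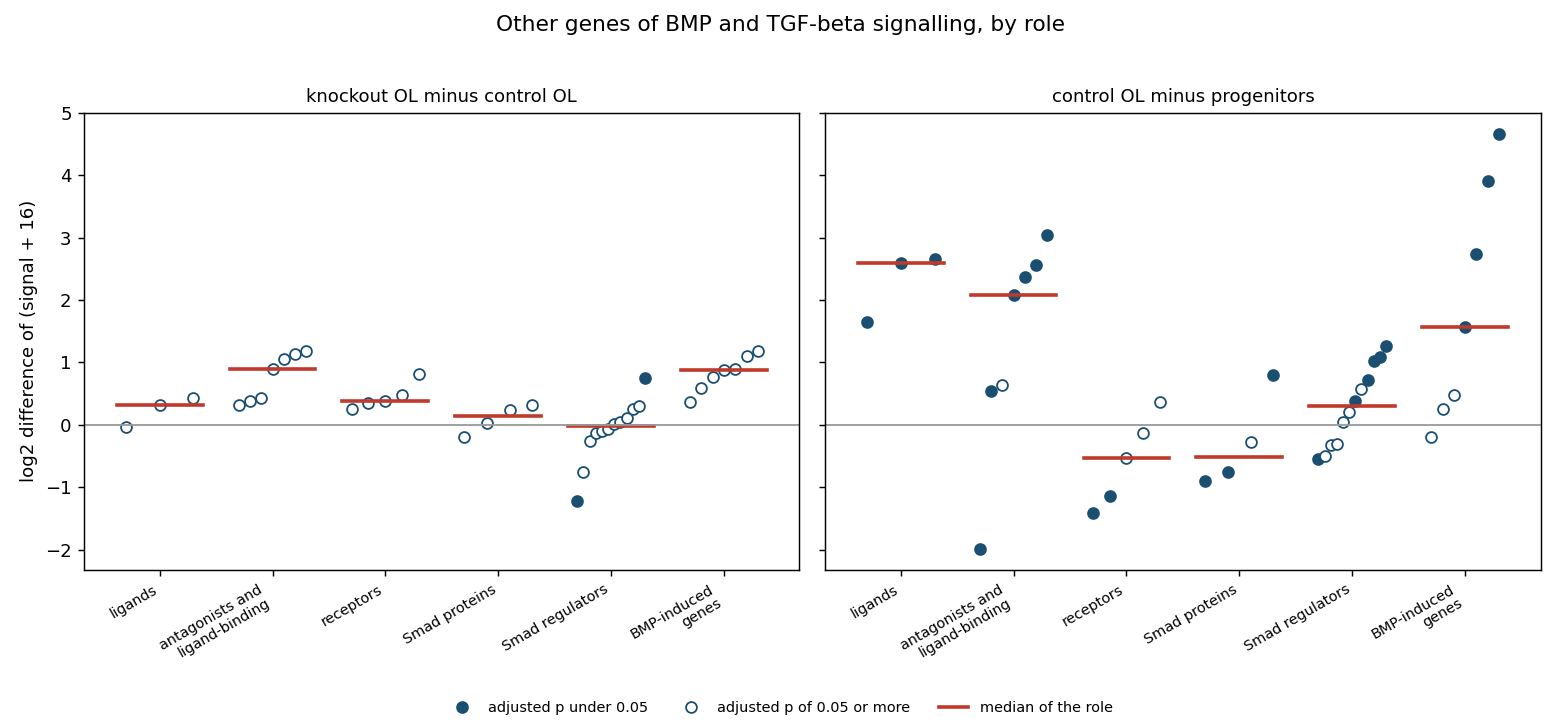
Log2 differences of signal + 16 for the 38 tested genes of the wider pathway by role, for knockout minus control oligodendrocytes and control oligodendrocytes minus progenitors, with filled circles for an adjusted p under 0.05 and a bar at each role's median. The BMP-induced genes have a median of 0.88 in knockout minus control with no filled circle, and 1.57 in control minus progenitor with 4.

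The genes whose log2 signals were most like those of each member were read off over the 11 arrays, as a description with Pearson's r. The 11 arrays come from 3 groups, and how much of r comes from differences between the groups was not tested. Bmp4 was closest to Denn2b (r = 0.974), Cox20 (0.973) and Scrg1 (0.967), and Bmp7 to Jade1 (0.985), Plcb4 (0.982) and Piezo1 (0.982). Bmpr1b was closest to Il1r1 (0.995), the interleukin-1 receptor, whose mean signal was 472 in knockout, 246.5 in control and 15.4 in progenitor arrays. Smad7 was closest to Pfkfb4 (0.973), a regulator of glycolysis, which averaged 492 in knockout, 1128 in control and 342 in progenitor arrays. For Smad1 the nearest gene was Mob4 (0.918), which averaged 6197 in knockout, 4067 in control and 4140.4 in progenitor arrays, and for Bmpr1a and Bmpr2 they were Cd151 (0.975) and Chd6 (0.948).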

How the data were processed

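RNA from cultured cells of the oligodendrocyte lineage was hybridised to 11 Affymetrix Mouse Genome 430 2.0 arrays. The submitters' processing notes name GCOS 1.3 and MAS5, and per the labels' design text the authors scaled every array to a target intensity of 500. The deposited intensity values are linear MAS5 signals, 1 per probe set. Arrays have no read depth, and their number (3, 4 and 4) limits the precision. Genes were named from the platform annotation, in which 34958 probe sets had 1 symbol, 932 several and 9211 none, and symbols were updated by Entrez identifier for 34754. Control probe sets (64) were left out. Signals were used as log2 of signal plus 16, and a probe set was tested when it reached 200 on at least 3 arrays. Group means were fitted over 11 arrays with limma 3.58.1 under R 4.3.3, with an intensity trend in the variance, with Benjamini-Hochberg adjustment across the 18568 tested probe sets (threshold 0.05). A gene was described by its brightest tested probe set. The code was tested on simulated data. Other pathway genes were named when called without overlap, up to 3 per role with the largest difference; Id1 to Id4, Hey1 and Sox9 were also described between knockout and control, and the markers called with the block were named, after their values were seen. Like genes were chosen by the 3 highest correlations. The members and lists were chosen with earlier results of these data known. Replicate numbers in the titles were shared between groups. Deviations from the group means of same-numbered knockout and control arrays correlated at 0.228, 0.238 and 0.238. The numbers were taken as pairing them, although no label says what they mark, and a replicate block was run as an alternative. That fit used only the 2 groups compared and only the arrays whose numbers both groups share. Some unlike numbers correlated about as much: knockout replicate 1 with control replicate 2 (0.214) and knockout replicate 2 with control replicate 1 (0.166). Knockout replicate 3 correlated more with control replicate 4 (0.362). Numbers did not pair the progenitors, with correlations of -0.143 to 0.176 against controls. Promoter windows came from RefSeq (GRCm38.p6).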

Additional observations from a re-analysis of the deposited data

How the results depend on the processing

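Of the 876 single values compared over the alternatives, 827 stayed on the same side of the threshold (uncalled values near 0 could change sign), 26 moved past it, 23 no longer passed it and no called value changed sign. The count of member probe sets called between knockout and control was 2, and it was 1 with the stricter filter (200 on 6 arrays), 0 with 1 probe set per gene, 6 in the 2 groups alone (13.7% of all probe sets were called there), 9 with the replicate block (20.1% of all), 4 without progenitor replicates 1 and 4, and 0 to 4 when 1 replicate was left out. Among the other pathway genes it was 2, and 0 without a filter, 4 with 1 probe set per gene, 8 in the 2 groups alone (14.6% of all genes were called there), 14 with the replicate block (21.3% of all genes), 4 without progenitor replicates 1 and 4, and 0 to 6 when 1 replicate was left out. Where no share of all probe sets or genes is given, a count is not read as a result about the members or the pathway. With 1 probe set per gene 4 of 7 members were called in each comparison with progenitors, against 9 of 14 probe sets. That setting keeps the brightest Bmpr1a probe set, which was not called. It leaves out the other tested Bmpr1a probe sets and the Bmp7 probe set 1418910_at, which were called against progenitors. Also left out are Smad7 1443771_x_at, called in control minus progenitor (limma adjusted p = 0.00158), and Smad1 1448208_at, called in knockout minus progenitor (0.0126). Signal limits what can be said of Smad6, Nog and Bambi, which reached 200 on at most 1 array each.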
